A study of Arabidopsis thaliana with 12 samples.

Results

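The genes described here form a block of neighbours on chromosome 4 of Arabidopsis thaliana, from AT4G12640 to AT4G15550, in which mRNA levels of the wild type lay about 2-fold above those of the mutant tfIIfα1. The block was selected on these measured values. Its protein coding genes number 354, of which 18 were set aside by symbol, identifier or description (ribosomal proteins, pentatricopeptide repeat proteins, DnaJ proteins and a few others). The remaining 336 are called the segment members, of 33602 genes in the table.

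RNA was sequenced from aerial parts of plants 6 days old in 12 libraries, 3 in each of 4 groups. After 3 days at 4 °C, seedlings grew on 1% sucrose at about 21 °C in days of 16 h light. A stranded kit that selects mRNA served for 1 wild-type group and tfIIfα1. A stranded kit for total RNA, with ribosomal RNA depleted, served for the other wild-type group and tfIIfα2. The titles name the mRNA wild type 1171WTCol3 and the total RNA wild type WTCol0, the labels give both the genotype WT, and neither the nature of the tfIIfα alleles nor the number of plants pooled per library is stated. The labels do not say whether replicates were grown separately, and a p-value here reflects the spread among these libraries, which may be technical.

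TFIIF is a general factor that binds RNA polymerase II and helps it to start and continue transcription, and its large subunit is encoded by RAP74, AT4G12610. A transcript's level generally follows the number of copies of its gene, so a chromosome stretch present in more copies is usually seen as a run of neighbours shifted by a similar fold. Members of such a run can stay nearer their usual level, often through feedback, or move further. DNA was not measured in these libraries, so copy number was not tested, and the words used below for bands of fold change name sizes and no mechanism.

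Depth ran from 55915638 to 66711096 counts in the mRNA libraries and from 33292996 to 37456773 in the total RNA libraries, where plastid genes took 57.3% to 62.5% and nuclear genes kept 12069295 to 14652749 counts. The headers of 2 of the 3 tfIIfα1 columns name the other allele. Both headers begin with a prefix shared by the mRNA titles and absent from the total RNA titles. What this prefix stands for is not stated. By it these 2 columns were placed in tfIIfα1, and they are called replicates a and b. Even numbers made up 72.2% and 69.6% of their genes' counts, against 57.6% to 61.5% in the other mRNA libraries. RAP74 stood at 21.3, 21.2 and 18.4 CPM (counts scaled to a common library size) in wild-type mRNA and at 14.3, 16.5 and 15.9 CPM in tfIIfα1. In total RNA it was at 8.06, 7.58 and 8.06 CPM for wild type and at 4.84, 6.03 and 5.78 CPM for tfIIfα2. It was lower in every mutant library of both kits, though the total RNA difference did not pass the test (log2 fold change -0.51, SE 0.12, edgeR adjusted p = 0.0659). RAP74 lies just before the segment. Relative to the median of other chromosome 4 genes, its log2 level less wild-type total RNA was 0.25 in wild-type mRNA and -0.11 in tfIIfα1. Whether its mRNA difference is part of the segment offset was not tested. The summed level of 5 aerial markers, among them RBCS-1A and LHCB1.3, was 65672 to 73205 CPM in the mRNA libraries and 11006 to 19645 CPM in the total RNA libraries. The summed level of 5 root markers was 1.67 to 4.09 CPM and 0.58 to 2.38 CPM.

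Seen as one quantity, the segment separated wild-type mRNA from the other 9 libraries. The 336 members together took 1.47%, 1.49% and 1.45% of the nuclear counts in wild-type mRNA. They took 0.774%, 0.777% and 0.802% in tfIIfα1, 0.866%, 0.784% and 0.806% in wild-type total RNA, and 0.897%, 0.875% and 0.821% in tfIIfα2. No library of the last 3 groups reached 1%, and both mutants overlapped wild-type total RNA.

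**Figure D1:**
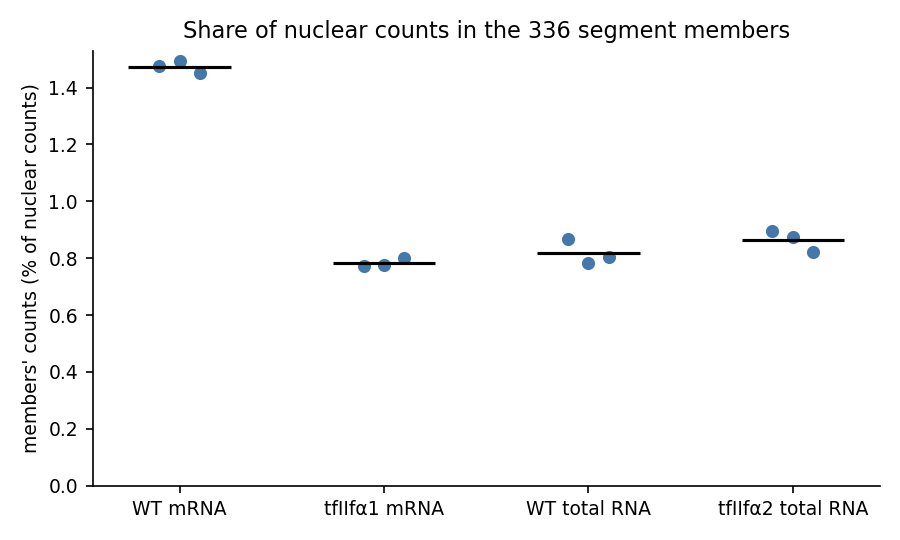
Percentage of nuclear counts that fell in the 336 segment members (vertical axis) for each library (points) of the 4 groups (horizontal axis), with group means as bars. The wild-type mRNA libraries sit between 1.45% and 1.49%, and the other 9 between 0.774% and 0.897%.

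Of the 336 members, 238 had enough counts to be tested in mRNA. The 98 that did not had means of at most 0.217 CPM, and 43 members had no count in any mRNA library. Among the 238, the median log2 fold change of tfIIfα1 against wild type was -0.999, that is, wild type lay 2.00-fold higher. The median SE of a member's log2 fold change was 0.0949. In edgeR's quasi-likelihood test at an adjusted p of 0.05, 207 members were lower and 3 higher in tfIIfα1, beside 19.6% lower and 18.7% higher of all tested genes. In 209 members every tfIIfα1 library lay under every wild-type library, beside 25.2% of all tested genes. These shares come from the comparison that chose the segment and are given as a description.

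The shift was alike in each library. The members' median ratio to the tfIIfα1 mean was 2.01, 2.02 and 1.97 in the wild-type mRNA libraries, and their median ratio to the wild-type mean was 0.490, 0.502 and 0.508 in tfIIfα1. Without replicates a and b the median log2 fold change was -1.02. The level of the shift also changed little along the segment. In 6 successive stretches of 39 or 40 tested members the median fold was 1.74, 2.19, 2.01, 1.97, 2.08 and 1.96. The first stretch was lowest and holds 13 of the 47 members described below as buffered.

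The edges by identifier were not sharp. Just before the first member, AT4G12590 showed a log2 fold change of 0.02, AT4G12600, a gene of the L7Ae ribosomal family, of 0.65, and RAP74 of -0.38. ORC1B, an origin recognition subunit and the nearest tested gene before the first member, showed -0.85, so that wild type lay 1.81-fold above tfIIfα1. Relative to the median of other chromosome 4 genes, the log2 level of ORC1B less wild-type total RNA was 0.005 in wild-type mRNA and -0.83 in tfIIfα1. Inside, AT4G12640, an RNA recognition motif protein, gave only -0.27, followed by TMN12, an endomembrane protein, at -0.99 (1.99-fold) and the homeodomain-like AT4G12670 at -1.04. At the other end AT4G15540 and AT4G15545 gave -1.27 and -1.14, and the last member UGT75D1 gave 0.29. Beyond it DXS, the first enzyme of the plastid isoprenoid pathway, gave -0.62 (1.54-fold), AT4G15563, with no description, -2.02 and MAA3, a helicase-like protein, -0.93 (1.90-fold). AT4G15610 then gave 2.73, in the opposite direction. On the scale used for ORC1B, wild-type mRNA and tfIIfα1 were at 0.65 and 0.04 for DXS. They were at 2.05 and -0.03 for AT4G15563 and at 0.46 and -0.45 for MAA3. Whether these outer genes share the segment offset was not tested.

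**Figure D2:**
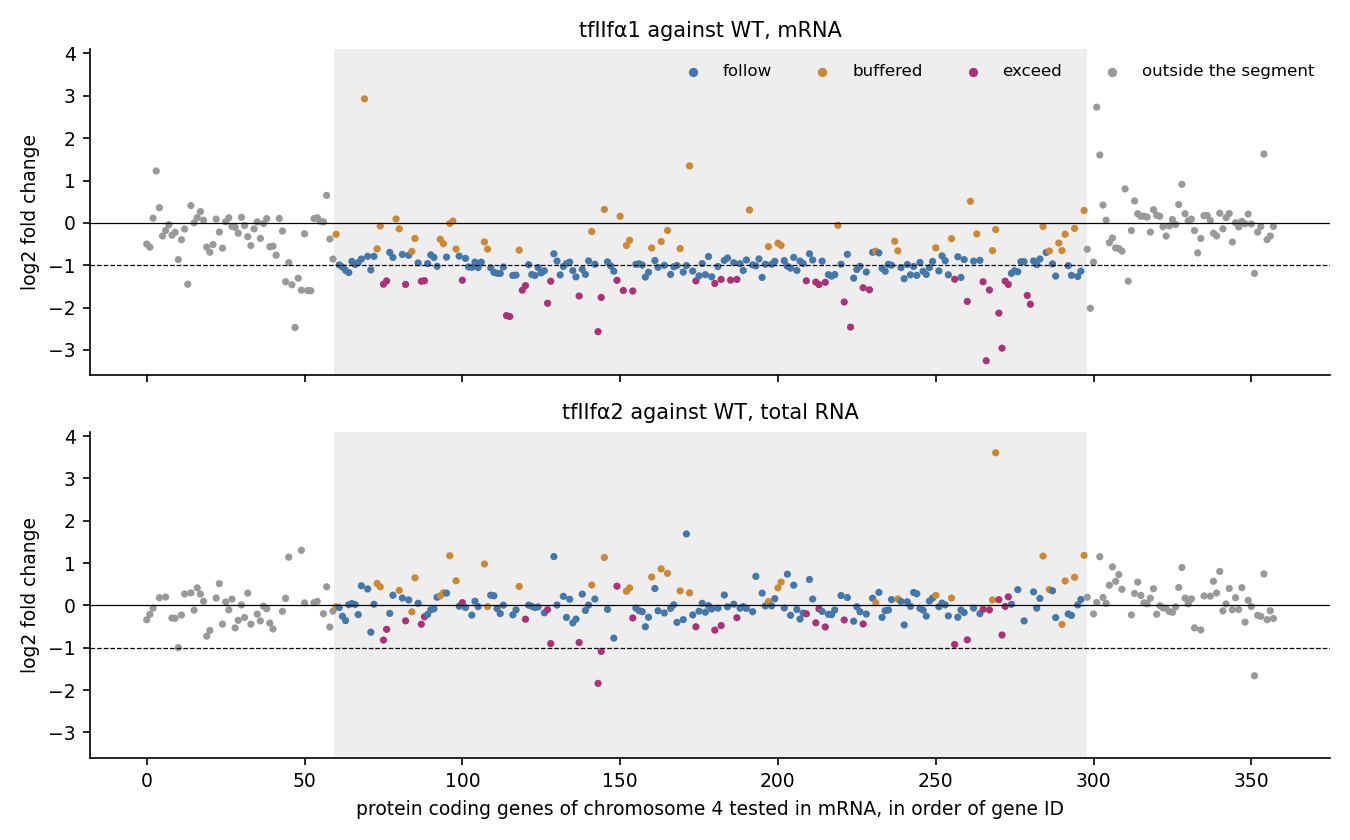
Log2 fold change (vertical axis) of tfIIfα1 against wild type in mRNA (top) and of tfIIfα2 against wild type in total RNA (bottom) for tested protein coding genes in order of identifier. The shaded stretch holds the segment members, coloured by band, with 60 genes on either side in grey and dashed lines at the 2-fold step. Most members lie near the dashed line in the top panel (median -0.999) and near 0 in the bottom panel (median -0.03).

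A member was said to follow the step where wild type lay 1.6- to 2.5-fold above tfIIfα1, to be buffered where the fold was under 1.6 or in the other direction, and to exceed the step above 2.5-fold. By this rule 149 members (62.6%) followed, 47 were buffered and 42 exceeded the step. Of all genes tested in mRNA, 5.7% had a fold in the first range, 92.7% under it and 1.64% over it. The limits cut a continuous range. AT4G14746 lay just under the lower limit at 1.59-fold, and AT4G14740 and AT4G12870 just over it at 1.62-fold each. SECE1, a subunit of the thylakoid Sec translocase, lay just under the upper limit at 2.49-fold and AT4G15030 just over it at 2.52-fold. In 127 of the 238 members the fold was within 2 SE of a limit, so that their band is uncertain.

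How tightly members kept to the step went with their level. Of the 130 members with a mean of at least 10 CPM, 98 followed, 20 were buffered and 12 exceeded it, with an SD of the log2 fold change of 0.32. Of the 31 members under 1 CPM, 8 followed, 13 were buffered and 10 exceeded it, with an SD of 1.13. The median level was 20.2 CPM in the follow band, 4.89 CPM in the buffered and 5.66 CPM in the exceed band. Exon number and transcript length were similar: medians of 4, 3 and 4.5 exons and of 1824, 1716 and 1610 bases, in the same order.

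Members with high levels in the follow band came from many processes. OASA1, the cytosolic enzyme that makes cysteine from O-acetylserine, was at 758, 748 and 733 CPM in wild-type mRNA and at 395, 366 and 370 CPM in tfIIfα1 (1.98-fold, log2 SE 0.06). Its total RNA values were 142, 136 and 133 CPM for wild type, and 154, 142 and 140 CPM for tfIIfα2. The mRNA groups lay far apart and the total RNA groups overlapped. CYP83A1, the cytochrome P450 that oxidises aldoximes for methionine-derived glucosinolates, was at 357, 404 and 347 CPM in wild-type mRNA and at 179, 193 and 190 CPM in tfIIfα1 (1.97-fold). FLA2, a fasciclin-like arabinogalactan protein of the cell surface, had a fold of 1.81, and AT4G15545, which has no description, of 2.2. In each of these 4 genes every wild-type mRNA library lay above every tfIIfα1 library, as in 209 of the 238 tested members.

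**Figure D3:**
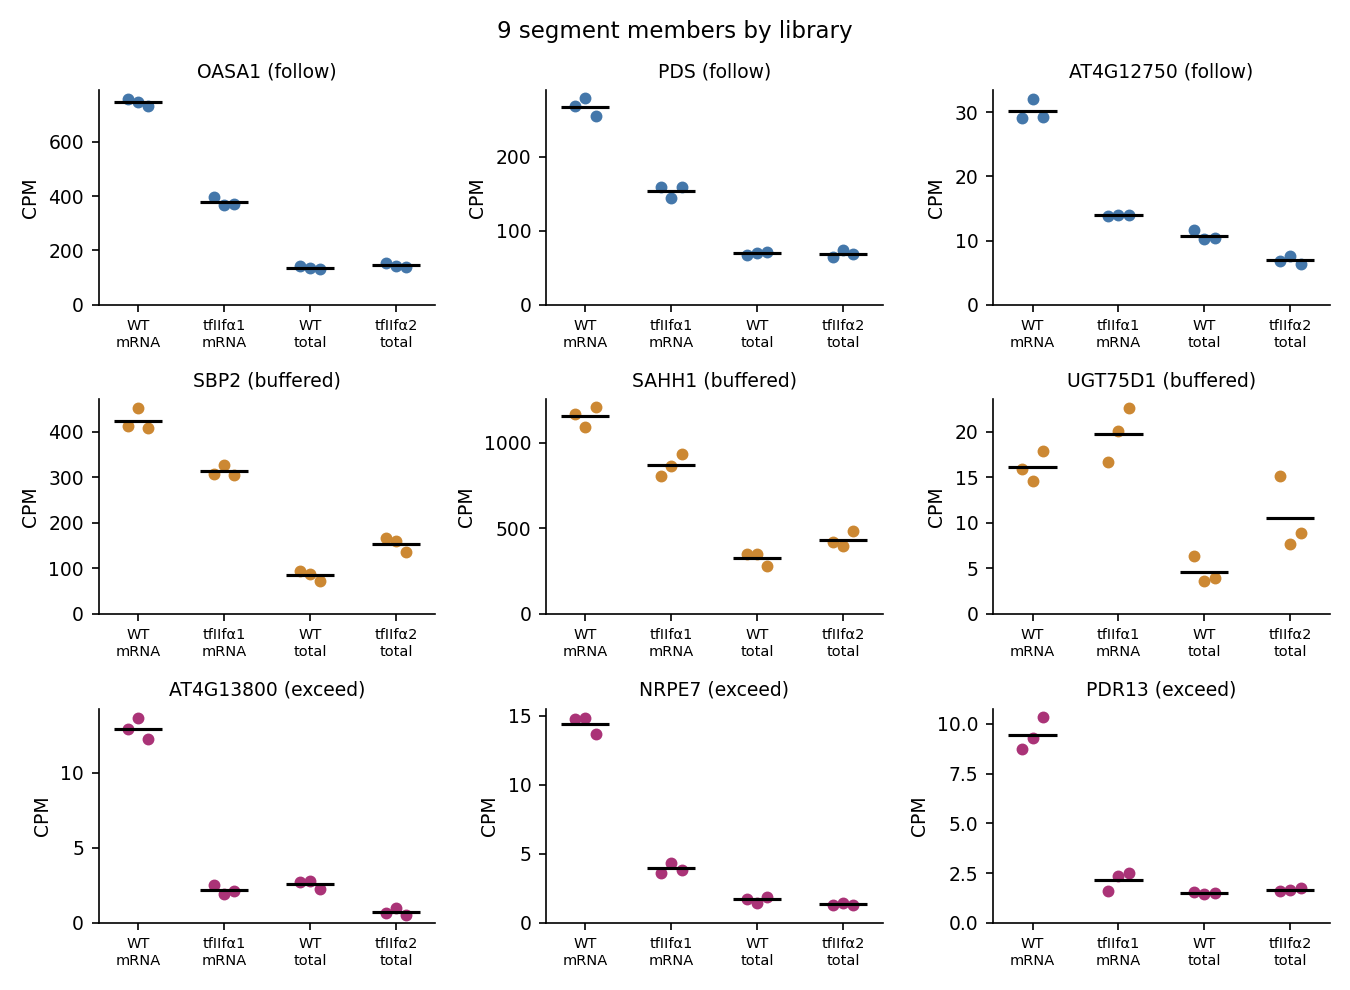
CPM (vertical axes, starting at 0) of 9 members in each library (points, with group means as bars) of the 4 groups. Library sizes include plastid genes, which took most counts in total RNA, so heights are not comparable between kits. OASA1, PDS and AT4G12750 lie in the follow band, SBP2, SAHH1 and UGT75D1 in the buffered and AT4G13800, NRPE7 and PDR13 in the exceed band, with folds of wild type over tfIIfα1 from 0.816 (UGT75D1) to 5.94 (AT4G13800).

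Gene lists are read beside the share of all tested members that followed, 62.6%, or 75.4% of those with at least 10 CPM. Of 8 tested transcription factors, 7 followed, with a list median of -1.01 beside -0.999 over all tested members. The iron-response factor BHLH104 had a fold of 1.97, the homeodomain-like UNE16 of 1.90 and the light-signalling factor FAR1 of 1.83. The remaining one was NFYB3, a nuclear factor Y subunit, at 50.9, 52.8 and 57.1 CPM against 19.5, 21.7 and 21.1 CPM (2.58-fold, log2 SE 0.07). Its wild-type libraries were all more than those of tfIIfα1 by a gap larger than the spread within either group. All 4 tested auxin genes followed with folds under 2: the repressors IAA14 and IAA1 at 1.66- and 1.84-fold, the auxin synthesis gene YUC2 at 1.90-fold and AT4G12980 at 1.7-fold. All 3 tested F-box genes followed, and FBL4 was at 29.2, 27.3 and 30.5 CPM against 12.6, 11.4 and 12.4 CPM (2.39-fold).

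Of 7 tested plastid and pigment genes 6 followed, a share near that of all members with at least 10 CPM (75.4%). PDS, the phytoene desaturase of carotenoid synthesis, was at 269, 279 and 255 CPM against 159, 144 and 159 CPM (1.74-fold, log2 SE 0.06). NYC1, a chlorophyll b reductase, had a fold of 2.07, FdC2, a ferredoxin-like protein, of 2.34 and CYP97B3, a P450 of the carotenoid hydroxylase family, of 1.87. The exception was PPDK, the pyruvate orthophosphate dikinase, at 19.0, 25.6 and 18.2 CPM against 16.2, 17.6 and 23.5 CPM (1.10-fold), with overlapping groups. Of 7 tested cell wall genes 5 followed, among them the xyloglucan enzyme XTH15 (2.01-fold) and the near-copies CSLB5 and ATCSLB06 (both 1.89-fold), between which reads may have been split. The other two, AT4G13210 and AT4G13390, had folds of 2.56 and 4.57 at means of 1.37 and 0.221 CPM.

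Enzymes of sulfur and one-carbon metabolism divided between the bands, with 3 following, 3 buffered and 1 exceeding. SAHH1, which hydrolyses the S-adenosylhomocysteine left by methylation, was at 1169.8, 1091 and 1206 CPM in wild-type mRNA and at 805, 863 and 936 CPM in tfIIfα1. Its fold of 1.33 (log2 SE 0.06) was well under the step although the groups did not overlap. SHM4, a cytosolic serine hydroxymethyltransferase next to it, was at 390, 348 and 380 CPM against 240, 252 and 279 CPM (1.45-fold). The third, SHM5, had a mean of only 0.179 CPM. AT4G14710 and AT4G14716, neighbouring acireductone dioxygenase genes of the methionine salvage cycle, parted, with folds of 2.15 and 2.89. The ATP sulfurylase APS3 had 1.67. In the glucosinolate list, IIL1, an isopropylmalate isomerase subunit, was at 547, 592 and 535 CPM against 348, 371 and 351 CPM, a fold of 1.56 just under the limit.

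UDP-glycosyltransferases, which attach sugars to small molecules, held the largest share of buffered members of any list with at least 4 tested members: 5 of 6, with a median log2 fold change of -0.37. UGT75D1, described as an indole-3-acetate glucosyltransferase, was at 15.9, 14.6 and 17.9 CPM in wild-type mRNA and at 16.7, 20.1 and 22.6 CPM in tfIIfα1, a fold of 0.816 in the opposite direction with overlapping groups. Its log2 fold change moved from 0.29 to 0.05 without replicates a and b. UGT75C1, an anthocyanin glucosyltransferase, was at 3.11, 4.50 and 4.28 CPM against 2.49, 3.96 and 4.05 CPM (1.13-fold). It lay 1.59-fold lower in tfIIfα1 without replicates a and b. The neighbours UGT84A1, UGT84A3 and UGT84A4, of a group that glucosylates hydroxycinnamates, formed a run of 3 buffered members with folds of 1.39, 1.58 and 1.21. AT4G15260 followed, at 2.23-fold.

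Other members also had small folds. AT4G13180, a Rossmann-fold oxidoreductase, was at 9.29, 11.8 and 12.8 CPM in wild-type mRNA and at 11.1, 11.2 and 11.2 CPM in tfIIfα1 (1.01-fold). AT4G12830, an alpha/beta hydrolase, had a fold of 1.05, AT4G15430, an early-responsive-to-dehydration family protein, of 1.06, and NOV, which carries a domain shared with histidine kinases, a log2 fold change of -0.21. In the family of GILT thiol reductases, AT4G12900 had 1.10 and AT4G12870 had 1.62, while AT4G12890 was near 0 CPM. AT4G12735 and MET4, a DNA methyltransferase family gene, lay the other way, with means of 0.0413 CPM in wild type and 0.329 CPM in tfIIfα1 for the first and of 0.355 and 0.902 CPM for the second. They were chosen after their values were seen, as the 2 members besides UGT75D1 called higher.

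Members past the step included a run of 4 neighbours, AT4G15215 to AT4G15236, of pleiotropic drug resistance type ABC transporters. PDR13 was at 8.72, 9.30 and 10.3 CPM in wild-type mRNA and at 1.62, 2.36 and 2.52 CPM in tfIIfα1 (4.38-fold). ABCG30 was at 9.29, 10.6 and 9.46 CPM against 1.14, 1.70 and 0.912 CPM (7.78-fold, log2 SE 0.17). AT4G15233 and ABCG43 had folds of 2.60 and 2.74, and since their transcripts match at 95.6% over 4160 bases, reads may have been split between them. By the measure between kits described below, tfIIfα1 stood at 0.66-, 0.44- and 0.35-fold of wild-type total RNA for PDR13, ABCG30 and AT4G15233. In wild-type mRNA the same genes stood at 2.88-, 3.43- and 0.92-fold. In the wider list of transporters the ammonium transporter AMT1-1 (2.33-fold) and AT4G15540 (2.41-fold) followed the step.

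The largest fold was that of AT4G15160, a lipid transfer family gene with the symbol DL3625W, at 2.63, 1.83 and 3.90 CPM against 0.124, 0.393 and 0.365 CPM (9.56-fold, log2 SE 0.36). Without replicates a and b its fold was 22.1. AT4G13800 (5.94-fold) and AtRLP47 (3.39-fold), a receptor-like protein gene, overlap each other by 219 bases in the TAIR10.1 annotation, so reads there could belong to either. NRPE7, a subunit of RNA polymerase V, was at 14.7, 14.9 and 13.7 CPM against 3.64, 4.36 and 3.85 CPM (3.65-fold). In the same list the polymerase II-related NRPB7L followed at 1.95-fold, and the histone methyltransferase gene ATXR3 was buffered at 1.58-fold. UNE15 (3.73-fold), LIGB (3.62-fold), AT4G13690 (3.31-fold) and the peptide gene RALFL31 (3.05-fold) complete the 10 largest folds among members with at least 1 CPM. In all 10 the groups did not overlap, but the 10 were picked for their folds, and 209 of the 238 tested members were lower in tfIIfα1 without overlap.

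Protein kinases were spread over the bands, with 3 following, 2 buffered and 2 exceeding. MHK was at 75, 72.8 and 69.6 CPM against 29.4, 25.6 and 28.5 CPM (2.60-fold), the casein kinase CKI1 followed at 1.95-fold and the AGC family kinase AT4G14350 at 1.84-fold. Of the 4 tested cytochrome P450 genes 3 followed, including the hydroperoxide lyase CYP74B2 (1.62-fold). The single tested triterpene synthase, PEN1, had a fold of 3.28 at under 1 CPM. Of the 13 cytochrome P450 members 9 had too few counts to be tested.

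Between kits, the members' levels in wild-type mRNA were higher than in both total RNA groups. Levels from an mRNA and a total RNA kit differ gene by gene, so each member's difference in log2 CPM is given relative to the median of 2687 other chromosome 4 protein coding genes, for the 224 members with counts in all 12 libraries. By that measure wild-type mRNA lay 1.96-fold above wild-type total RNA and 2.03-fold above tfIIfα2. The tfIIfα1 levels lay at 0.98-fold of wild-type total RNA and 0.981-fold of tfIIfα2. Of the 224 members 201 were above the other genes' median in wild-type mRNA against both total RNA groups, and 88 in tfIIfα1. The share of the other genes above their median against both groups was not counted. Against each group alone, tfIIfα1 was above that median in 104 members (wild-type total RNA) and 107 (tfIIfα2). These comparisons share libraries with the one that chose the segment and are a description, and within a pair the kit and the group cannot be told apart.

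**Figure D4:**
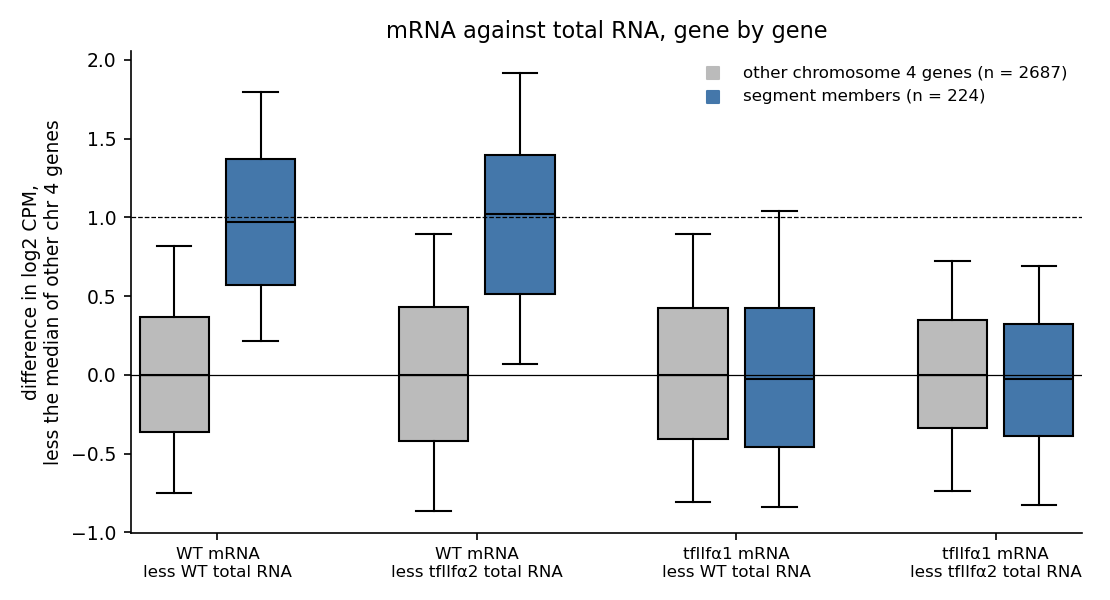
Difference in log2 CPM between an mRNA and a total RNA group, less the median of the other chromosome 4 genes (vertical axis), for 224 members (blue) and 2687 other genes (grey). Boxes span the quartiles with the median as a line and whiskers from the tenth to the ninetieth percentile. The members' boxes are centred at 0.97 and 1.02 for wild-type mRNA and at -0.03 for tfIIfα1 against either total RNA group.

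The bands were cut on wild-type mRNA over tfIIfα1, so how these groups' medians differ between bands is in part fixed by that cut. Members that followed had medians of 1.90- and 2.03-fold for wild-type mRNA over wild-type and tfIIfα2 total RNA. For the 40 buffered members the medians were 2.13-fold over wild-type total RNA and 1.37-fold over tfIIfα2. For the 37 members past the step they were 2.14-fold and 2.75-fold. Set against wild-type total RNA, the medians of wild-type mRNA ranged over the bands from 1.90- to 2.14-fold. Against wild-type total RNA, tfIIfα1 was 1.40-fold higher in the buffered band and 0.70-fold in the exceed band, while against tfIIfα2 its medians were 1.01- and 0.956-fold. Single genes ranged more widely: OASA1 had a log2 offset of 1.34 in wild-type mRNA over wild-type total RNA, SBP2 of 1.22, NRPE7 of 1.99, ABCG30 of 1.78, AT4G15233 of -0.12, ATXR3 of -0.63 and NOV of -0.87.

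Total RNA of tfIIfα2 against its own wild type uses none of the libraries that chose the segment, and it held no such step. The 209 members tested there had a median log2 fold change of -0.03. In edgeR's test 5 members were lower and 3 higher, beside 1.72% and 1.48% of all tested genes. With the replicate number as a block, 18 were lower and 18 higher, beside 9.18% and 9.56% of all tested genes. Without any single library of this comparison the fit without the block left 0 lower and 0 higher members in 4 of 6 cases, 0 and 1 without wild-type replicate 1, and 1 and 2 without tfIIfα2 replicate 3.

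Since the calls were near the shares of all tested genes and few held with a library left out, the bands of the called members are a description. All 3 members called higher in tfIIfα2 lay in the buffered band. SBP2, a selenium-binding protein, was at 412, 452 and 409 CPM in wild-type mRNA and 307, 327 and 304 CPM in tfIIfα1 (1.36-fold). Total RNA gave 94.3, 87.9 and 72.5 CPM for wild type, and 167, 160 and 136 CPM for tfIIfα2, a rise of 0.86 in log2 (SE 0.14, adjusted p = 0.0284). The mutant libraries were thus all lower than wild type in one kit and all higher in the other, but the mRNA wild type carries the segment offset. By the measure between kits, SBP2 in tfIIfα1 lay 1.74-fold above wild-type total RNA and at 0.952-fold of tfIIfα2. Whether the alleles differ in SBP2 was not tested. AT4G15430 rose from 1.63, 1.41 and 1.45 CPM to 3.93, 3.13 and 3.02 CPM (log2 fold change 1.17, SE 0.17, adjusted p = 0.026). AT4G12790, a P-loop hydrolase gene, rose from 14.2, 12.9 and 14.2 CPM to 18.2, 20.8 and 20.2 CPM (log2 fold change 0.52, SE 0.11, adjusted p = 0.0461).

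Of the 5 members called lower in tfIIfα2, 4 lay in the exceed band, which is likewise a description. AT4G13800 fell from 2.74, 2.76 and 2.28 CPM to 0.672, 0.979 and 0.514 CPM (log2 fold change -1.84, SE 0.25, adjusted p = 0.0215). Its overlapping neighbour AtRLP47 fell by 1.09 on the log2 scale (adjusted p = 0.0352), and AT4G13575, with no description, by 0.90 (adjusted p = 0.0312). AT4G15030, which overlaps AT4G15040 by 875 bases in the TAIR10.1 annotation, fell by 0.92 (adjusted p = 0.0467). The other was AT4G12750, a homeodomain-like regulator in the follow band, at 11.6, 10.2 and 10.4 CPM against 6.80, 7.61 and 6.39 CPM (log2 fold change -0.63, SE 0.11, adjusted p = 0.036). In mRNA it had been at 29.0, 32.1 and 29.2 CPM against 13.7, 14 and 14 CPM, 2.16-fold apart.

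Across the bands, members' fold changes in tfIIfα2 ran with how far they departed from the step in tfIIfα1. Of the 37 buffered members tested in total RNA, 33 had a log2 fold change above 0, with a median of 0.41. Of the 32 past the step, 28 were below 0, with a median of -0.39. Of the 140 that followed, 83 were below 0, with a median of -0.05. With the replicate block 13 buffered members rose and 0 fell, and 14 of those past the step fell and 0 rose. Of those that followed, 5 rose and 4 fell. Over all tested genes 9.56% rose and 9.18% fell in that fit. Calls among genes outside the segment, split by their tfIIfα1 fold, were not counted. For some examples the log2 fold change is given first, then the adjusted p with and without the block. They were UGT75D1 (1.18, 0.0004 and 0.0821), IIL1 (0.45, 0.0136 and 0.138), PPDK (0.67, 0.00899 and 0.141), MHK (-0.44, 0.0115 and 0.0659) and LIGB (-0.81, 0.0216 and 0.0666).

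**Figure D5:**
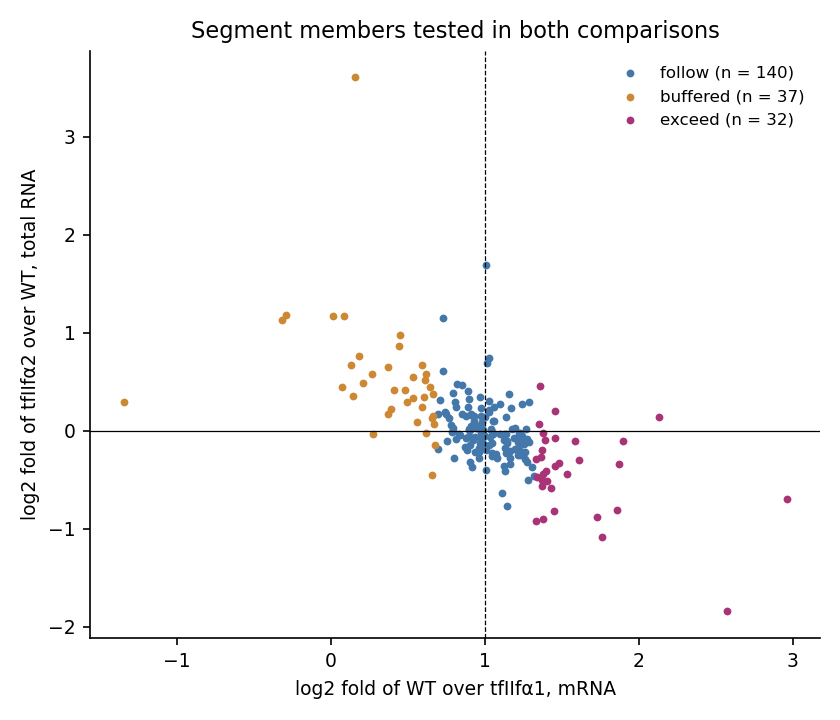
Log2 fold change of tfIIfα2 against wild type in total RNA (vertical axis) against the log2 fold of wild type over tfIIfα1 in mRNA (horizontal axis, dashed line at the 2-fold step) for 209 members, coloured by band. Buffered members lie mostly above 0 (33 of 37) and members past the step mostly below it (28 of 32).

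That relation was not shown to be particular to the segment. Across the 130 members with at least 10 CPM, the log2 fold changes in the alleles had a Pearson correlation of 0.77 and a Spearman correlation of 0.70. Across 1460 other chromosome 4 genes at that level the values were 0.73 and 0.71. The comparisons share no library, and genes are not independent replicates. The spread around the step was also like that of the other genes around 0: SDs of the log2 fold change in tfIIfα1 were 0.32 and 0.31. Of these members 74.6% lay within the width of the follow band around their own median, and of the other genes 74.7%.

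Some named members went another way or rested on 1 replicate number. PDR13, 4.38-fold apart in mRNA, stood in total RNA at 1.56, 1.47 and 1.51 CPM for wild type and at 1.58, 1.64 and 1.77 CPM for the mutant (log2 fold change 0.14, SE 0.17, adjusted p = 0.679). UGT84A3, in the buffered band, had a log2 fold change of -0.45 (SE 0.49, adjusted p = 0.633). XTH15, in the follow band, was carried by 1 replicate number, at 1.78, 1.38 and 30.1 CPM in wild-type total RNA and at 2.90, 1.80 and 102 CPM in tfIIfα2. BAM5, a beta-amylase named after its values were seen, was at 0.402, 0.0294 and 0 CPM against 4.78, 0.379 and 0.514 CPM, so that its tfIIfα2 level rested mostly on replicate 1.

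Promoter motif matches were few in every band. In windows from 250 bases before to 50 after the gene start in the TAIR10.1 sequence, searched on both strands, the clock-associated evening element was found for 2 of 47 buffered members, 7 of 148 that followed and 2 of 42 past the step, beside 2.81% of 27562 promoters. The G-box was found for 5, 17 and 2 of them, beside 7.65% of promoters.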

How the data were processed

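The values were raw counts per gene as the authors deposited them. Bowtie2 2.2.9, FastQC 0.11.5 and edgeR 3.20.1, and the build TAIR10, are named without roles per the submitters' processing notes. The counting tool and its strand setting are not given in the sources used here. Without a known strand setting, reads of overlapping genes cannot be told apart. Of the count columns, 6 belong to no sample and were not used. The 18 normalized columns per library were not used. The authors' tfIIfα1 mean, deposited as a score rounded to whole numbers per the file headers, was a weighted sum of the 3 columns taken for tfIIfα1 within 0.0987% at the 99th percentile of genes above 500. Without any 1 of the 3 columns the deviation was 8.47% to 9.53%.

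Mutant and wild type of the same kit were compared by the quasi-likelihood test of edgeR 4.0.16 in R 4.3.3, after filterByExpr and TMM, over all genes and with Benjamini-Hochberg adjustment at 0.05. For tfIIfα1 no p-value is given for a member, since that comparison chose the segment. Fold changes come from the fit, CPM uses TMM library sizes, and SE is the size of the log2 fold change divided by the root of the F statistic. CPM is not divided by gene length, so levels are compared only within a gene, or between bands as a description. The library sizes include plastid genes, which took most of the total RNA counts, so printed CPM values are not comparable between kits. The measure between kits was scaled on nuclear genes only. The code was tested on simulated data.

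Same-numbered total RNA libraries deviated together from their group means (correlations over genes 0.638, 0.231 and 0.534), so the number, taken from the titles, was used as a block as an alternative. No such fit was made for tfIIfα1, where the numbers of replicates a and b are not known.

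Members and lists were chosen with earlier results of these data known. Named genes were the 10 largest and 10 smallest folds among members with at least 1 CPM, members called in tfIIfα2, the 3 genes on either side of each end, the 4 highest in the follow band and up to 3 per list, with the other listed genes given as examples. Of 105 list memberships, 8 were dropped because the deposited description contradicted the list (selenium-binding proteins among glucosinolate genes, for instance). The TAIR10.1 annotation, which held 332 of the members, gave gene order, overlaps, lengths and promoter windows only, and its proteins were not used here. Alternatives were RLE, TMM without the segment, other count filters, DESeq2 1.42.0, other band limits and leaving out each library.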

Additional observations from a re-analysis of the deposited data

Results flagged for a closer look

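In 8 named members every tfIIfα1 library lay on one side of its wild type and every tfIIfα2 library on the other side of its own. In each case tfIIfα1 was lower and tfIIfα2 higher. The tfIIfα1 side was nearly fixed by the choice of the segment. Every tfIIfα1 library lay under wild type in 209 of the 238 tested members, beside 25.2% of all tested genes. The share of all tested genes with opposite sides was not counted. The log2 fold change in tfIIfα2 less that in tfIIfα1 was 1.13 for AT4G12790, 1.09 for IIL1 (AT4G13430), 0.69 for NOV (AT4G13750), 0.87 for SHM4 (AT4G13930), 0.83 for SAHH1 (AT4G13940), 1.30 for SBP2 (AT4G14040), 0.78 for ATXR3 (AT4G15180) and 2.27 for PDR13 (AT4G15215). The difference was not tested, the alleles were prepared with different kits, and the segment was chosen for being lower in tfIIfα1. Of these 8 members 7 are in the buffered band, so they were lower in tfIIfα1 by less than the step, and PDR13 is in the exceed band. By the measure between kits, tfIIfα1 less wild-type total RNA was positive in log2 for SBP2 (0.80), AT4G12790 (0.58), IIL1 (0.48), SAHH1 (0.33) and SHM4 (0.20). Set against that wild type, these genes were higher in both alleles, so their opposite sides depend on the wild type used. The value was negative for PDR13 (-0.59), NOV (-1.05) and ATXR3 (-1.27). Whether the alleles differ in any of these genes was not tested.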

How the results depend on the processing

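The tfIIfα1 median and the count of lower members kept their size under every alternative run. Members called higher numbered 3, and 1 with at least 1 CPM in 3 libraries or without replicates a and b. Leaving out each library gave medians from -1.004 to -0.989, 198 to 204 lower and 2 to 4 higher members. The bands depended on their limits: with the narrower planned band 68 members exceeded it, and with a band within 1.5 times of the step 25 were buffered and 18 exceeded it. With genes of any count 66 exceeded it. At 10 CPM or more, 98 followed, 20 were buffered and 12 exceeded it. Leaving out each library gave 146 to 156, 45 to 49 and 38 to 46, and leaving out both replicates a and b, an alternative added after seeing the data, gave 149, 48 and 53. Of the named members' tfIIfα1 values, 7 moved by more than the replicate spread, all without replicates a and b, among them AT4G12890, near 0 CPM, from 0.09 to -1.22 on the log2 scale.

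In tfIIfα2, DESeq2 gave 9 lower and 6 higher members and the replicate block 18 and 18, while leaving out each library gave 0 to 1 and 0 to 2. With genes of any count the median was 0.00028, and leaving out each library gave -0.0504 to -0.00924. The total RNA libraries held 12069295 to 14652749 nuclear counts, and their biological coefficient of variation was 0.184 against 0.0827 in mRNA. The part of either in the number of calls was not tested. The offsets between kits, with each library left out, were 0.945 to 0.999 for wild-type mRNA less wild-type total RNA, 0.945 to 1.03 less tfIIfα2, -0.0432 to -0.0196 for tfIIfα1 less wild-type total RNA and -0.044 to 0.0169 less tfIIfα2. With 10 CPM in every group the last was 0.0044. The causes were not tested.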
